A study of Mus musculus with 3 samples.

Results

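The Id genes, the inhibitory Smads and Bambi are genes that cells switch on in answer to bone morphogenetic protein (BMP). The inhibitory Smads and Bambi hold the signal in check, and the Id proteins act on differentiation. The set was chosen by name as Id1, Id2, Id3, Id4, Smad6, Smad7 and Bambi, and every probe set with 1 of these as its single gene symbol was taken. This gave 7 genes and 12 probe sets, out of 18194 genes and 45037 probe sets on the array. The cells were MC3T3-E1, a mouse preosteoblast line from the calvaria (skull vault), labelled as C57BL/6. They were grown for 3 days at 37 °C in 1 of 3 media, all based on MEM α with 10% fetal bovine serum. One culture had osteogenic medium with 0.6% dimethyl sulfoxide (DMSO), a solvent that also alters cell differentiation. Another had osteogenic medium without DMSO. The last had normal medium, for which the labels list neither DMSO nor the osteogenic supplements. Those supplements were 150 µM ascorbic acid 2-phosphate, a lasting form of the vitamin used in collagen synthesis, and 10 mM beta-glycerophosphate, from which cells release phosphate for mineral. There was 1 array per medium and no replicate, so no difference has a test or an error from cultures, and precision is limited by the number of arrays.

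BMP ligands bind paired serine-threonine kinase receptors, which phosphorylate Smad1, Smad5 and Smad9. These join Smad4, enter the nucleus and switch on genes that include the members described here. The 4 Id proteins are helix-loop-helix proteins without a DNA-binding region. They pair with E proteins such as those encoded by Tcf3, Tcf4 and Tcf12 and keep them from binding DNA. Smad6 blocks mainly the BMP branch, Smad7 blocks both the BMP and the TGF-beta branch, and Bambi is a membrane receptor without a kinase domain that ties up the signalling receptors. In bone, BMP drives osteoblast differentiation, and mouse studies have linked Id4 to the choice of the osteoblast over the adipocyte fate through its binding of Hes1.

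Values are the deposited log2 values of each probe set. Levels of different probe sets cannot be compared, because each has its own brightness, so each gene was compared across arrays within a probe set. The sums over marker genes given below are weighted towards the brightest probe set. Values under 3.54 on the log2 scale, the 50th percentile over the probe sets and arrays together, were taken as too dim to read, and this floor is used throughout. Of the 12 member probe sets, 10 were above it on all 3 arrays. The other 2, an additional probe set each of Id2 and Smad7, were below it on all 3 and had equal values throughout, 2.48 for Id2 and 2.85 for Smad7. The probe set with the highest mean represented each gene, and a difference of at least 1 on the log2 scale, a 2-fold change, counted as a rise or a fall.

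Sequences upstream of Id4 and Id3 are shown because these genes moved in opposite directions across the media. Windows were read from the RefSeq promoter table (GRCm38.p6) for 4 of the 7 members, Id2, Id3, Id4 and Smad6. The search skipped member rows on a single chromosome, which were kept among the windows of all genes. Id1, Smad7 and Bambi have no window here, and the skip was not shown to be the reason for each of them. That lack says nothing about their promoters. The 250 bases before the annotated start are given 5′ to 3′ on the gene's own strand, with capitals on GGCGCC, on the letters GGAGCC and on their complement GGCTCC, the GC-rich motifs known to be bound by the BMP-activated Smads.
Id4, chr13:48260866-48261115, plus strand: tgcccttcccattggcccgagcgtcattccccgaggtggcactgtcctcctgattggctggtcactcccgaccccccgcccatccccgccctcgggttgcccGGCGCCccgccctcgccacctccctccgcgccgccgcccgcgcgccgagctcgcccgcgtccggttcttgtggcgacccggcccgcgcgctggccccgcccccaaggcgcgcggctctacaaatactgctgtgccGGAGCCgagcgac
Id3, chr4:136143572-136143821, plus strand: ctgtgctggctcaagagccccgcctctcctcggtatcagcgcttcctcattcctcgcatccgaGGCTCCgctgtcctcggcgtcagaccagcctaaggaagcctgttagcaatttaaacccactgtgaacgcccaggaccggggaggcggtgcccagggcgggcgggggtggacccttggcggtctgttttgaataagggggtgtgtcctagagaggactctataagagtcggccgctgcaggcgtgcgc

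Both strands were searched for these letters, and GGCGCC reads the same on both. The Id4 window held GGCGCC, starting 148 bases before the start, and GGAGCC, starting 13 bases before it. The Id3 window held GGCTCC, the complement of GGAGCC, starting 187 bases before the start. Id2 held GGCGCC at 231 and GGAGCC at 88 bases before the start, and Smad6 held GGAGCC at 102 and at 18. No 2 of these matches overlapped. At least 1 of the 3 was found in 31.7% of all 32851 promoter windows of this length, GGCGCC in 9.59% and GGAGCC or its complement in 26.0%. The 4 windows were also rich in G and C, at 75.6% for Id4, 66.8% for Smad6 and 62.8% for both Id2 and Id3, where the median of all windows was 52.4%. CCAAT or its complement ATTGG, found in 33.8% of windows, occurred at 3 places for Id2, at 2 for Id4 and at none for Id3 and Smad6. The matches describe letters only, and no binding was measured.

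Before the members are described, the arrays and the cell type were checked. The probe sets had medians of 3.54, 3.57 and 3.54 in osteogenic medium with DMSO, osteogenic medium and normal medium. The Actb probe sets at the 3′ and 5′ ends, a measure of RNA integrity, differed by 0.18, 0.20 and 0.27 in the same order. The 18 probe sets for spiked-in hybridisation controls had a median difference of 0.10 between the osteogenic and the normal array, and of -0.03 in the DMSO step. Of the 7 osteoblast markers listed, Runx2, Bglap and Spp1 had no probe set with a single gene symbol. The remaining 4, Sp7, Alpl, Ibsp and Col1a1, were above the floor on all 3 arrays. Their summed level was 12.97, 12.72 and 12.40 on the log2 scale in the same order of media, a sum set mostly by Col1a1. The single markers differed more. Alpl was higher by 1.70 in osteogenic than in normal medium and by 0.71 in the DMSO step, Ibsp by 2.18 and 0.38, Sp7 by 0.88 and 0.41, and Col1a1 by 0.04 and 0.18. Their part in the differences of the members was not tested. Of other cell types, Adipoq, Fabp4 and Pparg (adipocyte), Acan and Col10a1 (chondrocyte), Myod1 and Myog (muscle), Pecam1, Cdh5 and Tek (endothelium) and Ptprc, Adgre1 and Acp5 (macrophage and osteoclast) were below the floor on every array. Cebpa, Sox9, Col2a1, Des, Acta1, Csf1r and Ctsk were above it on all 3, and Kdr on the normal array alone. The summed level of the 4 chondrocyte markers was 8.82, 8.83 and 8.40, which followed Col2a1.

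**Figure D1:**
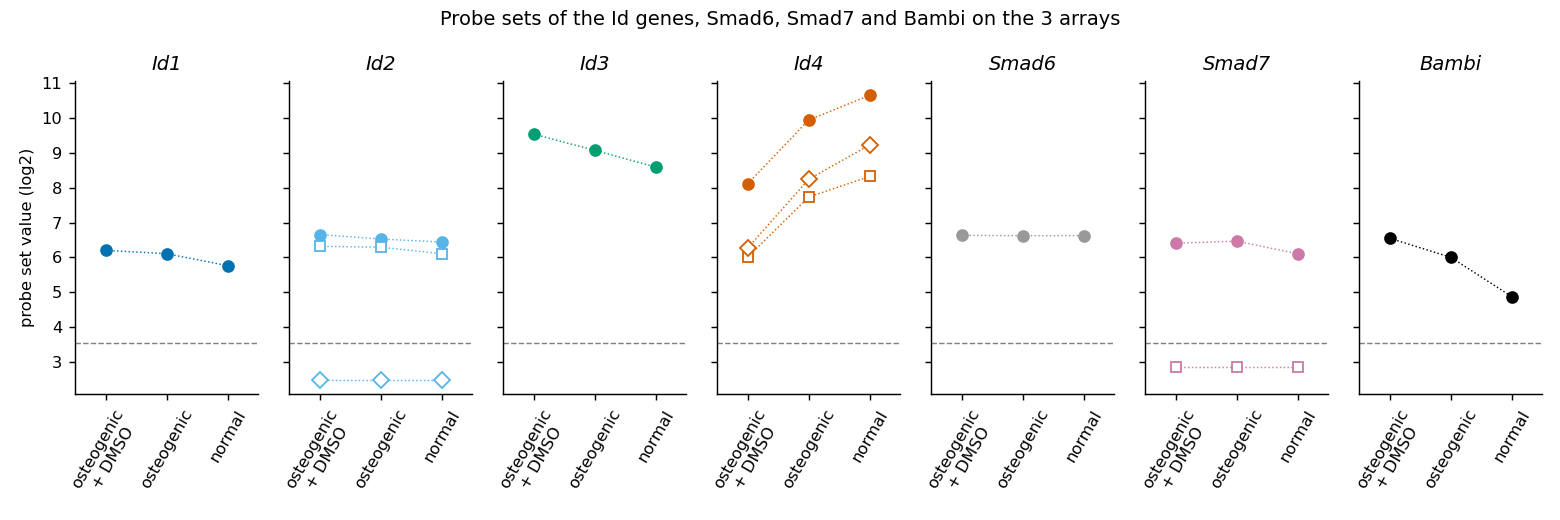
Log2 value of each member probe set (y axis) on the arrays of osteogenic medium with DMSO, osteogenic medium and normal medium (x axis). Filled circles are the probe sets that represent a gene, open squares and diamonds are its other probe sets, dotted lines join 1 probe set across arrays and the dashed line is the floor of 3.54. The 3 Id4 probe sets are lowest with DMSO, Bambi and Id3 are highest with DMSO, and Smad6 is level.

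Id4 had the largest change of the 7 members in the DMSO step and between osteogenic medium with DMSO and normal medium, though Bambi changed more in osteogenic against normal medium. Id4 fell with DMSO, while Id3 and Bambi were higher there than in either other medium. The representative probe set of Id4 (1423259_at) stood at 8.12 in osteogenic medium with DMSO, 9.95 in osteogenic medium and 10.65 in normal medium. The second (1450928_at) stood at 6.27, 8.24 and 9.23 in the same order, and the third (1423260_at) at 6.01, 7.73 and 8.32. All 3 probe sets thus ordered the media alike, with the DMSO array lowest and the normal array highest. With DMSO, Id4 fell by 1.83 relative to osteogenic medium, a 3.55-fold drop, and the probe sets ranged from -1.97 to -1.72 (mean -1.84 ± 0.13, SD over 3 probe sets of 1 gene, which does not measure the spread between cultures). Osteogenic medium alone put Id4 at -0.71 relative to normal medium, with a range of -0.98 to -0.59. In the deposited values this stays short of 2-fold in all 3 probe sets, though -0.98 is close to it. Centring the arrays on the medians of the hybridisation spikes put the representative probe set at -0.87. The other Id4 probe sets were not read singly after that centring. Relative to normal medium, osteogenic medium with DMSO held 5.80-fold less Id4 signal by the representative probe set, 7.76-fold less by 1450928_at and 4.96-fold less by 1423260_at.

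Among all genes, Id4 was near the bottom of the DMSO comparison. Its fall was the ninth from the lowest of 11424 genes above the floor on at least 1 of the 2 arrays. In osteogenic against normal medium it stood 98th from the lowest of 11418 genes. Of the whole difference between osteogenic medium with DMSO and normal medium, 72.1% lay in the DMSO step by the representative probe set, 66.7% by 1450928_at and 74.4% by 1423260_at. The osteogenic array enters both steps with opposite signs, so an error on that array alone would move 1 share up and the other down.

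Id3, a BMP target that holds back E proteins in progenitor cells, was higher at each step. Its single probe set stood at 9.54 in osteogenic medium with DMSO, 9.07 in osteogenic medium and 8.59 in normal medium. The differences were 0.47 with DMSO and 0.48 with osteogenic medium, so that 49.3% of the whole difference of 0.94 lay in the DMSO step. That whole difference is 1.92-fold, just under the threshold, and ranked 83rd from the highest of 11423 genes. With DMSO few genes were higher to this extent, and Id3 ranked 71st from the highest of 11424 genes, whereas in osteogenic against normal medium it ranked 326th of 11418.

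Id1 and Id2 differed less. Id1, a widely used readout of BMP signalling, stood at 6.20 in osteogenic medium with DMSO, 6.11 in osteogenic medium and 5.76 in normal medium. It was higher by 0.34 in osteogenic than in normal medium, and by 0.10 with DMSO, where 20.0% of genes were higher still. Id2, which is also known as a regulator of lymphoid and fat cell development, had values of 6.66, 6.53 and 6.44 in the same order by 1 probe set and 6.32, 6.29 and 6.11 by the other. The differences of Id2 were 0.09 and 0.19 for osteogenic against normal medium and 0.13 and 0.03 for the DMSO step. The Id2 value of 0.09 became -0.08 when the arrays were centred on the medians of the hybridisation spikes. The differences of Id2, and that of Id1 in the DMSO step, are of the size of probe noise. Across 5185 genes with 2 probe sets above the floor, the difference of a single probe set had an SD of 0.13 (osteogenic against normal medium) or 0.11 (DMSO step), estimated from the scatter between the 2. That SD leaves out the spread between cultures.

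Within the Id family, the step differences of Id4 and its relatives lay further apart with DMSO than with osteogenic medium alone. The log2 difference of Id3 in the DMSO step exceeded that of Id4 by 2.30, that of Id2 by 1.96 and that of Id1 by 1.93. In osteogenic against normal medium the corresponding gaps were 1.18 for Id3, 0.79 for Id2 and 1.05 for Id1. The array holds no measure of protein, and whether less Id4 signal came from fewer cells that express it or from less RNA per cell cannot be told apart in a bulk culture.

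Bambi, the kinase-less decoy receptor, rose in osteogenic medium. Its single probe set stood at 6.55 in osteogenic medium with DMSO, 6.00 in osteogenic medium and 4.87 in normal medium. It was 2.19-fold higher in osteogenic than in normal medium (1.13 on the log2 scale), 38th from the highest of 11418 genes. With DMSO it was higher by a further 0.55, or 1.46-fold, 43rd from the highest of 11424 genes. In all, osteogenic medium with DMSO held 3.19-fold more Bambi signal than normal medium, and 67.4% of that log2 difference lay in the step to osteogenic medium. The rise in osteogenic medium was close to the threshold, and centring the arrays on the medians of the hybridisation spikes left it at 0.96.

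The inhibitory Smads differed from each other and from Bambi. Smad7 stood at 6.41 in osteogenic medium with DMSO, 6.47 in osteogenic medium and 6.10 in normal medium. It was thus higher by 0.36 in osteogenic than in normal medium and at -0.06 in the DMSO step. Smad6 stood at 6.64 with DMSO and at 6.62 in both osteogenic and normal medium. The values of Smad6 in those 2 media were identical to the last digit. Such equality is common in the deposited table, where 46.8% of probe sets had equal values on the osteogenic and normal arrays and 50.7% on the arrays with and without DMSO. Among genes above the floor, 24.9% and 29.2% had a difference of exactly 0 in these comparisons. An equal value is therefore no precise measurement of a lack of change. Centring on the medians of the spikes put the differences between osteogenic and normal medium at -0.17 for Smad6, 0.20 for Smad7, 0.18 for Id1 and 0.31 for Id3.

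**Figure D2:**
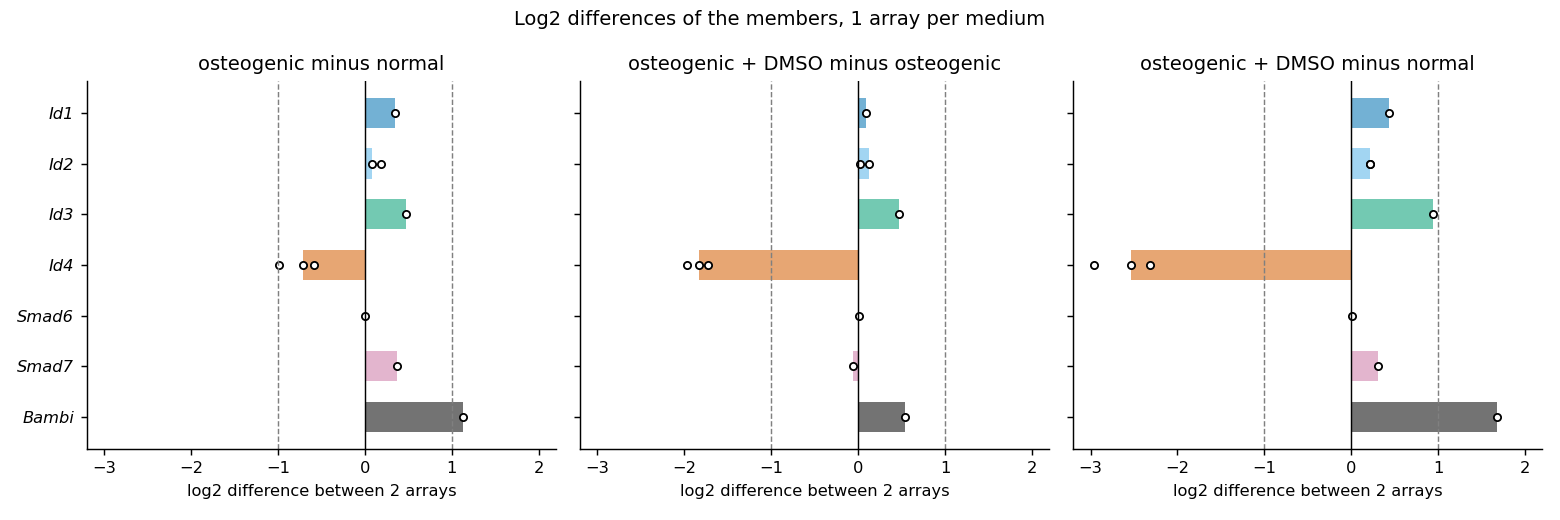
Log2 difference between 2 arrays (x axis) for each member (rows) in the 3 comparisons. Bars give the representative probe set, open circles every probe set above the floor, and dashed lines mark a 2-fold change at -1 and 1. Id4 extends to -1.83 in the DMSO step and to -2.54 for osteogenic medium with DMSO against normal medium, and Bambi reaches 1.13 in osteogenic against normal medium.

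Counted together, 1 of 7 members rose in osteogenic against normal medium (Bambi) and 0 fell, while 0.473% of the 11418 genes above the floor rose and 0.184% fell. In the DMSO step 0 members rose and 1 of 7 fell (Id4), while 0.0525% of 11424 genes rose and 0.551% fell. For osteogenic medium with DMSO against normal medium, the sum of the other comparisons, 1 member rose (Bambi) and 1 fell (Id4), while 0.604% of 11423 genes rose and 1.34% fell. At 1.5-fold the members past the threshold were Bambi and Id4 in osteogenic against normal medium, Id4 alone in the DMSO step, and Id3, Bambi and Id4 in the last comparison. The background at 1.5-fold was 3.36%, 2.47% and 6.78% of genes in either direction. The members' median difference was 0.34 in the first comparison, 0.10 in the DMSO step and 0.31 in the last, and the median of all genes above the floor was 0 in each. In osteogenic against normal medium 5 of 7 members were above 0, as were 36.5% of all genes. In the DMSO step 5 of 7 members and 40.5% of genes were above 0. With 7 members and 1 array per medium these counts describe the arrays and test nothing.

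**Figure D3:**
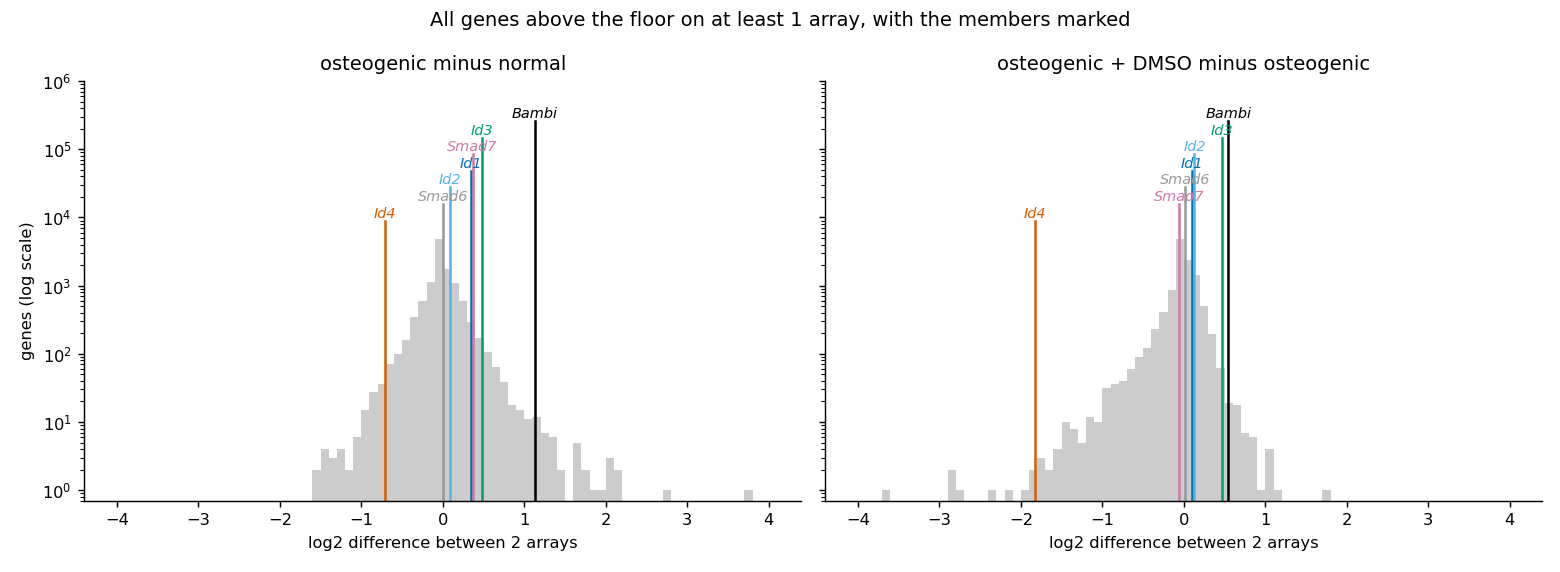
Number of genes (y axis, log scale) by log2 difference between 2 arrays (x axis, bins of 0.1), for genes above the floor on at least 1 array, with coloured lines at the members; line heights only separate the names. Bambi lies in the upper tail for osteogenic against normal medium, and Id4 lies far in the lower tail of the DMSO step, which is longer than its upper tail.

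The genes whose values followed Id4 and Bambi most closely over the 3 arrays were sought among 10788 named genes above the floor on all of them. Likeness was the distance between the pairs of log2 differences in the 2 steps. Nearest to Id4 were Enpep (distance 0.08), G0s2 (0.39) and Medag (0.41). G0s2 stood at 3.55 in osteogenic medium with DMSO, barely above the floor, so its likeness rests on a dim value. Enpep, an aminopeptidase, stood at 7.05 in osteogenic medium with DMSO, 8.96 in osteogenic medium and 9.69 in normal medium. Nearest to Bambi were Tubb3 (0.16), Pth1r (0.16), the parathyroid hormone receptor, and Pdgfa (0.21). Pth1r stood at 9.41, 9.02 and 7.86 in the same order of media. Over 3 arrays such likeness rests on 2 differences per gene.

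**Figure D4:**
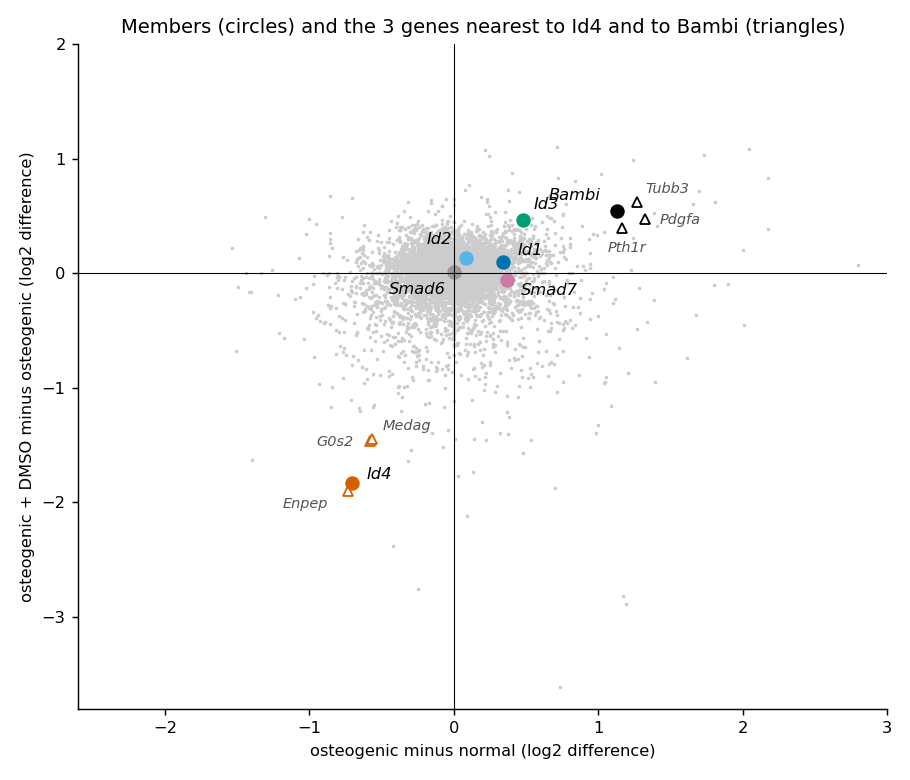
Log2 difference of osteogenic minus normal medium (x axis) against that of osteogenic medium with DMSO minus osteogenic medium (y axis). Grey points are genes above the floor on all 3 arrays, circles the members, and triangles the 3 genes nearest to Id4 and to Bambi. The axes share the osteogenic array, so noise on it moves a point down when it moves it right. Id4 lies at -0.71 and -1.83, beside Enpep, and Bambi lies at 1.13 and 0.55.

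The rest of the BMP pathway was described from 6 fixed lists. No receptor reached 2-fold. Of 6 receptor genes 5 were above the floor, with medians of -0.02 in osteogenic against normal medium and 0.00 in the DMSO step. Acvr2a, a type 2 receptor, was lower by 0.42 in osteogenic medium in 1 probe set and by 0.10 in the other. Bmpr1a, Bmpr2 and Acvr1 differed by at most 0.14 in size in these 2 steps by their representative probe sets. Another probe set of Bmpr1a reached -0.45 in osteogenic against normal medium. Bmpr1b was below the floor on every array.

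Among the Smads that carry the BMP signal, none of 3 above the floor reached 2-fold, and Smad1 was higher in the DMSO step. Smad1 stood at 8.93 in osteogenic medium with DMSO, 8.56 in osteogenic medium and 8.30 in normal medium. Its difference in osteogenic against normal medium was 0.25, and 0.09 with the arrays centred on the medians of the spikes. It was 0.37 in the DMSO step and 0.62 for osteogenic medium with DMSO against normal medium, under 2-fold. The other 2 probe sets of Smad1 gave 0.25 to 0.27 in the DMSO step and 0.43 to 0.52 in the last of these comparisons. Smad5 had 7.46 on all 3 arrays, and Smad4 differed by 0.00 in both steps, while their other probe sets were higher in the DMSO step by 0.05 to 0.15. Smad9 was below the floor.

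Of 7 Smad antagonists and ubiquitin ligases, none reached 2-fold, with medians of -0.07 in osteogenic against normal medium and 0.00 in the DMSO step. Tgif1, a corepressor of TGF-beta signalling, stood at 7.38 in osteogenic medium with DMSO, 7.67 in osteogenic medium and 7.93 in normal medium. Tob1, an inhibitor of BMP Smads in osteoblasts, was at -0.25 in the DMSO step. Smurf1, which marks BMP Smads for breakdown, was at -0.27 in osteogenic against normal medium and 0.11 in the DMSO step. Skil, a Smad corepressor, was at 0.28 and -0.13.

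Of the genes for E proteins, which the Id proteins bind, Tcf4 was lower with DMSO in all its probe sets above the floor, and none reached 2-fold. Tcf4 stood at 8.98 in osteogenic medium with DMSO, 9.34 in osteogenic medium and 9.54 in normal medium, and its 5 other probe sets differed by -0.55 to -0.04 in the DMSO step and by -0.33 to 0.09 in osteogenic against normal medium. Tcf3 and Tcf12 differed by -0.11 and -0.07 in osteogenic against normal medium and by 0.00 and -0.06 in the DMSO step, where the other probe sets of Tcf12 ran from -0.24 to 0.04. Hes1, the repressor that Id4 is known to bind, rose in osteogenic medium. It stood at 6.50 with DMSO, 6.64 in osteogenic medium and 5.60 in normal medium. The rise of Hes1 was 1.04, at the edge of 2-fold, and was 0.87 when the arrays were centred on the medians of the spikes. It was the 1 riser among 6 helix-loop-helix genes above the floor, where 0.473% of all genes rose, and none fell in either step. The median of the 6 was -0.03 in both. Hey2 and Heyl were below the floor.

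Of 8 other BMP targets above the floor, 1 rose in osteogenic against normal medium and 0 in the DMSO step, while 2, Dlx3 and Sp7, rose in osteogenic medium with DMSO against normal medium. The share of all genes that rose was 0.473%, 0.0525% and 0.604% in these comparisons. None of the 8 fell, and the medians were 0.14 in osteogenic against normal medium and 0.06 in the DMSO step. Runx2, also on this list, had no probe set with a single gene symbol. Dlx3, a homeobox factor of osteoblasts, rose by 1.41 in osteogenic medium, but its other probe set gave 0.10. With the mean over its probe sets the difference was 0.75, and with the floor at the 60th percentile it was 0.94, both under 2-fold. For osteogenic medium with DMSO against normal medium the call of Dlx3 was also lost with that mean, at 0.99, and its other probe set gave 0.17. Sp7, the osteoblast factor also called osterix, stood at 7.72 in osteogenic medium with DMSO, 7.30 in osteogenic medium and 6.42 in normal medium. Dlx5, which acts upstream of Sp7, was higher by 0.37 and 0.18 in the 2 steps. Grem1, a secreted BMP antagonist, stood at 5.00, 5.87 and 5.65 in the same order of media, lowest with DMSO. The ligand Bmp4 stood at 8.81, 8.29 and 8.07, and was higher by 0.52 in the DMSO step. Bmp7 had equal values on all 3 arrays, and Bmp2 and Bmp6 were below the floor.

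**Figure D5:**
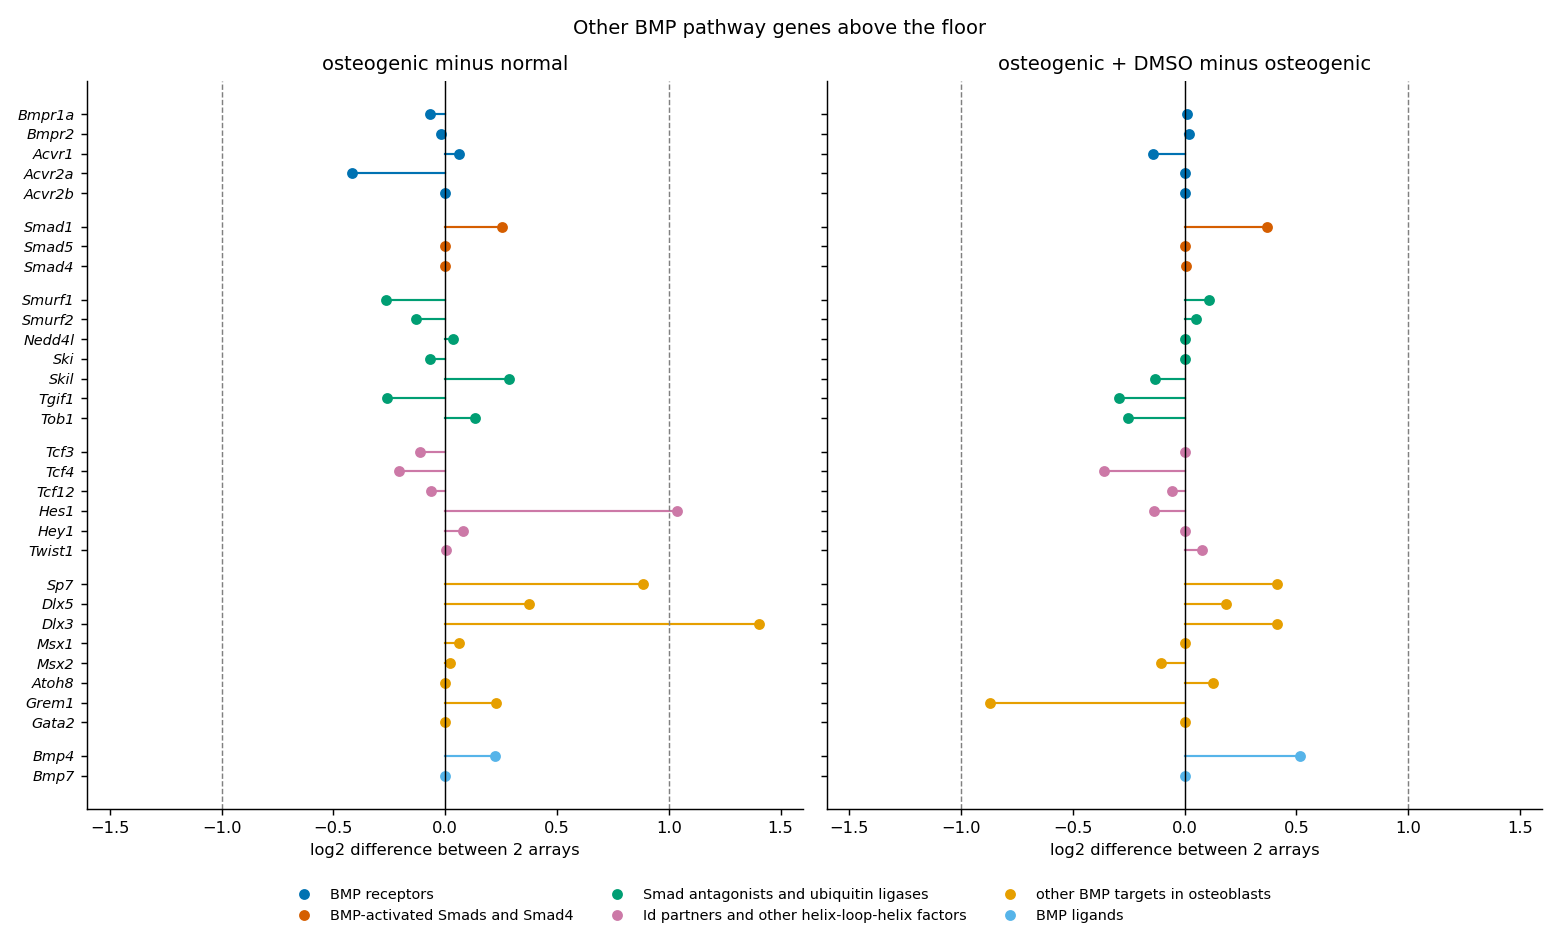
Log2 difference between 2 arrays (x axis) of other BMP pathway genes above the floor on at least 1 array (rows, coloured by list), for osteogenic minus normal medium on the left and osteogenic medium with DMSO minus osteogenic medium on the right. Dashed lines mark 2-fold. Hes1 and Dlx3 pass 1 on the left, and Grem1 at -0.87 is the farthest from 0 on the right.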

How the data were processed

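Biotin-labelled cRNA from total RNA of 3 MC3T3-E1 cultures was hybridised to Affymetrix mouse genome arrays, 1 per medium, per the labels' protocols. The deposited values are log2 values per probe set, with the base read from their range of 0.65 to 13.4. How the authors summarised and normalized them is not stated in the labels. The array medians were nearly equal, so a change in total RNA per cell would not be seen. Probe sets were named from the 2016 platform annotation. Of 45037, 34945 had 1 symbol and were used, 932 had several, none of them with a member's name, and 9160 were not named here. Groups came from the sample descriptions. Values under the floor were raised to it before differences were taken. With 1 array per group no test was run. From each list, up to 4 genes with the largest differences were named, with some others chosen after their values were seen. Members and lists were chosen with earlier results of these data known. Alternatives were the floor, 3 normalizations (quantile, cyclic loess and centring on the hybridisation spikes), the probe set rule and a 1.5-fold threshold. The computation was run on simulated data with little noise and planted changes well past the threshold. That run checks the arithmetic and says nothing about genes near the threshold. Python 3.11.15, numpy 2.4.6, pandas 2.3.3, matplotlib 3.10.9, R 4.3.3 and limma 3.58.1 were used.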

Additional observations from a re-analysis of the deposited data

How the results depend on the processing

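Of 30 counts of changed members under 10 alternatives, 28 were within 1.5 times of the reported count. In osteogenic against normal medium, centring each array on the median of its spikes left 0 members changed, with Bambi at 0.96, since it lowered the median of all genes by 0.17. The 1.5-fold threshold gave 2. Centring on the median difference of the spikes, chosen after seeing the data, kept 1, with Bambi at 1.04. Id4 in the DMSO step ranged from -1.85 to -1.80 over 9 alternatives. Of 189 member differences, 179 moved by less than the probe set SD, but many of these could not move. The floor alternatives left every member difference as it was, and a probe set rule cannot alter a gene with a single probe set. Under the 2 spike centrings Id2 became -0.08 and -0.01 in osteogenic against normal medium, and Smad6 became -0.12 and -0.06 in osteogenic medium with DMSO against normal medium. Without probe sets ending in _s_at, _x_at or _a_at, Id2 was represented by its dim probe set, with a difference of 0. No paired analysis was possible because each medium had 1 array and the labels give no replicate numbers.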
